A study of Arabidopsis thaliana with 45 samples.

Results

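The 100 transcripts described here rose between 6 h and 24 h of imbibition in water in non-dormant and in dormant Arabidopsis thaliana seeds. Among transcripts with like levels in both seed kinds at 24 h, these 100 increased most. They were chosen from 27827 probe sets, each named by a locus, by values of the water arrays alone. A probe set was eligible when non-dormant minus dormant seeds at 24 h lay between -0.5 and 0.5 on the log2 scale in polysomal and in total RNA, and when all 4 group means at 24 h were at least 5. Those 5210 probe sets were ranked by the smallest of 4 differences, 24 h minus 6 h in each seed kind and each RNA type, and the 100 highest were taken. All 4 differences were above 0 in 1945 of the 5210.

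The study measured expression on 45 arrays, 21 of polysomal and 24 of total RNA, in 16 groups. Non-dormant and dormant seeds were imbibed in cordycepin or water for 24 h or 6 h. All groups shared 1 genotype, NILDOG1-Cvi, a near-isogenic line in the Landsberg erecta background that carries the Cvi allele of the dormancy gene DOG1, so no group differed from another in genotype. There were 3 arrays in each group except polysomal RNA at 24 h from non-dormant seeds in cordycepin, dormant seeds in cordycepin and dormant seeds in water, which had 2 arrays each. Per the labels, each replicate was the bulked seed of 8 plants from a randomized block design. The way in which seeds lost dormancy was not given in the sources used here. Labels disagree in places: a treatment note speaks of dry seeds and the molecule field names total RNA throughout, and the groups follow the titles, which the sample characteristics match.

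Imbibition is the uptake of water that restarts metabolism in a dry seed. It takes place in dormant seeds too, which take up water without completing germination. Seeds hold messenger RNA stored from maturation, and new transcription begins within hours of imbibition, with genes for ribosomes and protein synthesis among those known to be switched on early. Polysomal RNA is the messenger RNA bound by several ribosomes and stands for what is being translated. Cordycepin is an adenosine analog that ends growing RNA chains and was used as an inhibitor of transcription.

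Values are log2 expression after RMA, a method that normalizes arrays to each other, so each difference is relative to the other transcripts and is not an absolute amount. In seeds measured in bulk, fewer cells of a type and less RNA per cell cannot be told apart. The arrays as deposited differ in distribution, with medians between 3.86 and 4.32 and lower quartiles between 2.24 and 2.92. The 9 seed storage and oil body markers all had group means of at least 3, and the log2 of their summed level ran from 12.65 to 15.06, lowest in non-dormant seeds at 24 h. The log2 sum of the 6 endosperm markers ran from 10.18 to 11.5. Of the 7 seed coat markers, 2 to 5 had a group mean under 3, and their log2 sum ran from 6.11 to 7.21.

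In water, on the arrays that chose the members, 24 h minus 6 h had a median over the members of 1.81 in polysomal RNA of non-dormant seeds, 1.72 in polysomal RNA of dormant seeds, 1.95 in total RNA of non-dormant seeds and 1.77 in total RNA of dormant seeds. The lowest of these differences was 1.301 and the highest 4.06, and they are a description with no test. The rule held the seed kinds alike at 24 h only, so the changes could differ. In total RNA AT2G02780 changed by 2.11 in non-dormant and 4.02 in dormant seeds, and FLA8 by 3.02 and 1.93. At 6 h in water non-dormant minus dormant ran from -1.22 to 0.90 in polysomal and from -0.80 to 2.09 in total RNA. It was within 0.5 of 0 for 85 and 90 members, against 85.2% and 79.3% of all probe sets. At the edge of the selection, AT5G02450, AT4G27090 and EMB2296 took ranks 98 to 100 with smallest differences of 1.308, 1.302 and 1.301. NOP10, AT5G26800 and ATATH8 came next with 1.301, 1.295 and 1.29, so the border is not a gap.

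**Figure D1:**
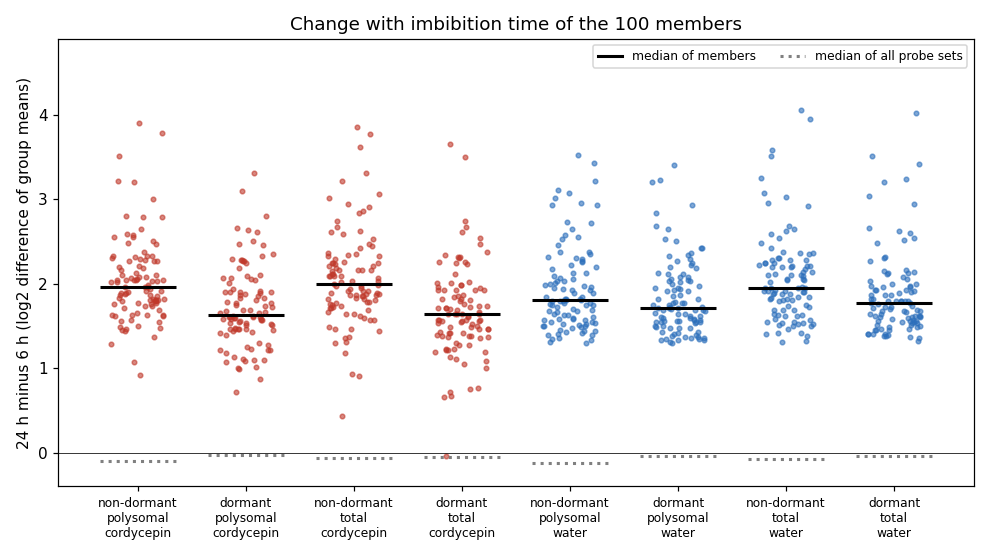
Each point is 1 of the 100 members, and its height is the log2 difference of group means, 24 h minus 6 h, in each combination of seed kind, RNA type and treatment. The black bars are the medians of the members (1.63 to 1.99 in cordycepin), the dotted bars those of all probe sets (-0.10 to -0.03 in cordycepin), and the water columns are the values that chose the members.

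The cordycepin arrays took no part in the choice and allow a test. Each of 14 comparisons among cordycepin groups was fitted over all probe sets with limma, and a call means an adjusted p under 0.05 by Benjamini-Hochberg over all 27827. Whether seeds in cordycepin and in water came from the same bulks was not given in the sources used here. In cordycepin, 100 of the 100 members were higher at 24 h than at 6 h in polysomal RNA of non-dormant seeds, where 15.1% of all probe sets were. In polysomal RNA of dormant seeds 98 were higher, against 7.8% of all probe sets. In total RNA 99 were higher in non-dormant seeds, against 15.8%, and 95 in dormant seeds, against 9.46%. By limma 0 members were called lower in each, against 13.9% of all probe sets in polysomal RNA of non-dormant seeds, 6.62% in polysomal RNA of dormant seeds, 13.6% in total RNA of non-dormant seeds and 7.19% in total RNA of dormant seeds. The 1 difference below 0 was that of AT5G53420 in total RNA of dormant seeds. The median difference over the members was 1.96 in polysomal RNA of non-dormant seeds, 1.63 in polysomal RNA of dormant seeds, 1.99 in total RNA of non-dormant seeds and 1.64 in total RNA of dormant seeds, while that over all probe sets was between -0.10 and -0.03.

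Higher in all 4 comparisons were 93 members, against 4.59% of all probe sets (1277). A change of at least 1 on the log2 scale, which is 2-fold, was reached in all 4 by 89 members, against 2.34% of all probe sets. The arrays of the 2 times did not overlap for 100 members in polysomal RNA of non-dormant seeds, 100 in polysomal RNA of dormant seeds, 100 in total RNA of non-dormant seeds and 95 in total RNA of dormant seeds. The same was so for 22.1%, 17.6%, 21.5% and 16.5% of all probe sets, in that order. Leaving out any 1 array left the counts of members between 88 and 100. At 6 h in cordycepin the median level of the members lay between 5.87 and 6.27 in the 4 groups. The lowest member means there were 2.77 to 3.22, under the medians of all probe sets (3.83 to 4.19), so some changes start from low values.

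The first rank was GRP4 (AT3G23830), a glycine-rich RNA-binding protein. Its values in polysomal RNA in cordycepin were 10.66 and 11.22 at 24 h, against 7.05, 6.88 and 7.19 at 6 h, in non-dormant seeds. In dormant seeds they were 10.07 and 10.10 at 24 h, against 6.84, 6.68 and 6.81 at 6 h. Every array at 24 h was thus more than 3 log2 units above every array at 6 h of the same seed kind. The difference was 3.90 ± 0.26 in non-dormant seeds (± is the standard error throughout, limma adjusted p = 2.227e-14) and 3.31 ± 0.26 in dormant seeds (limma adjusted p = 1.34e-11). In total RNA it was 3.86 ± 0.23 in non-dormant seeds and 3.66 ± 0.23 in dormant seeds.

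The other members of the first ranks that have no symbol in the reference table are given by locus only. The mean of the 4 cordycepin changes was 3.33 for AT5G12150, 3.21 for AT2G40205, 2.96 for AT2G41650 and 2.88 for AT3G11120. It was 2.61 for AT3G11510, 2.58 for AT2G37600 and 2.45 for AT4G30660, and all of these were higher in all 4 comparisons.

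**Figure D2:**
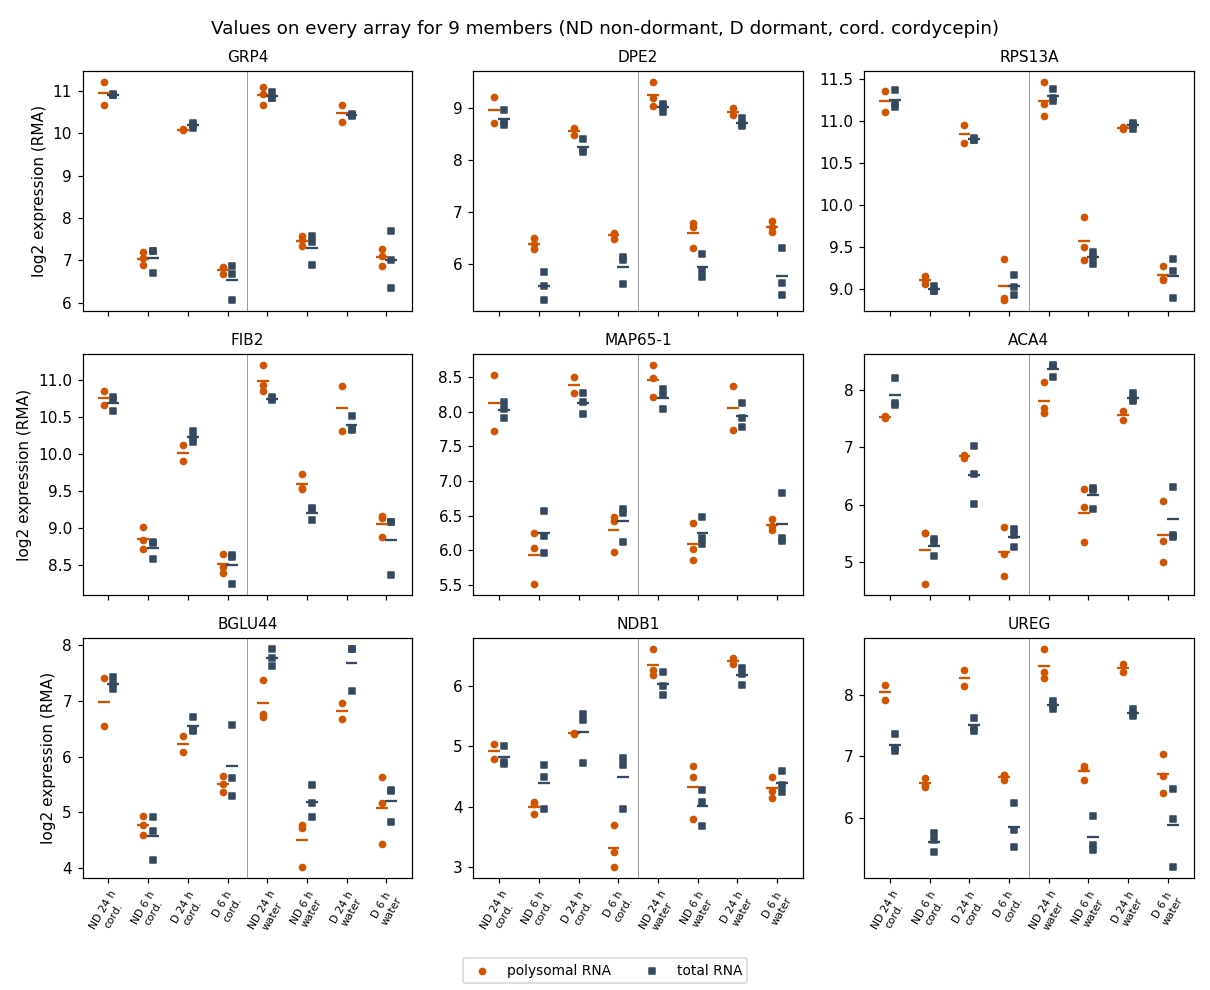
Each panel plots the log2 expression of 1 member on every array, by seed kind (ND non-dormant, D dormant), time and treatment, with circles for polysomal RNA, squares for total RNA and bars for group means, on a scale of its own. GRP4, DPE2, RPS13A, FIB2, MAP65-1 and UREG stand higher at 24 h on every array than at 6 h in each seed kind, treatment and RNA type, while ACA4, BGLU44 and NDB1 differ more among the cordycepin groups.

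Of the 100 members, 98 are listed as protein-coding, AT4G13245 as a small nucleolar RNA and AT1G79075 as a non-coding RNA. A symbol in the reference table was found for 40 members, or 40 of 100 against 37.9% of all probe sets, and the roles below cover these alone. The 60 others are counted in every total but given no role. Of all 100 members 93 were higher in all 4 cordycepin comparisons, against 4.59% of all probe sets. The counts by role below are parts of those 93, and no role was tested against the others.

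Protein synthesis held 10 of the named members, and all 10 were higher at 24 h in all 4 cordycepin comparisons. Among them were proteins of the cytosolic ribosome, with RPS13A (AT4G00100), RPS15 (AT1G04270) and PFL (AT1G22780) of the small subunit and RPL23AB (AT3G55280) and EMB2296 (AT2G18020) of the large subunit. RPS13A had 11.11 and 11.36 in polysomal RNA of non-dormant seeds at 24 h, against 9.16, 9.11 and 9.06 at 6 h. In dormant seeds it had 10.74 and 10.95 at 24 h, against 8.87, 8.90 and 9.36 at 6 h. The 2 times did not overlap in either seed kind, and the difference was 2.12 ± 0.17 in non-dormant seeds and 1.81 ± 0.17 in dormant seeds (limma adjusted p = 1.63e-12 and 6.381e-10). The mean of the 4 cordycepin changes ran from 1.59 for EMB2296 to 1.98 over the 10 members. FIB2 (AT4G25630) encodes a fibrillarin, which methylates ribosomal RNA in the nucleolus. It changed by 1.91 ± 0.19 in polysomal RNA of non-dormant seeds and 1.51 ± 0.19 in polysomal RNA of dormant seeds. UBQ1 (AT3G52590) encodes ubiquitin fused to a ribosomal protein, and MAP2A (AT2G44180) a methionine aminopeptidase, which takes the first methionine off new proteins. RFC3 (AT3G17170), which encodes a protein like one of the plastid ribosome, changed by 2.07 ± 0.28 in polysomal RNA of non-dormant seeds and 1.67 ± 0.28 in polysomal RNA of dormant seeds. Many ribosomal proteins have near-identical copies, as has ubiquitin, and how the probes tell them apart was not given in the sources used here, so the values of single copies are uncertain.

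The members that encode ribosomal proteins are part of a wider set of ribosomal protein transcripts. Of 24 cytosolic ribosomal proteins listed by locus, 3 were members (RPS13A, PFL and EMB2296), where 0.359% of all probe sets were members. In cordycepin 24 of the 24 were higher at 24 h in polysomal RNA of non-dormant seeds and 23 in polysomal RNA of dormant seeds, with 24 in total RNA of each seed kind. RPL5B was the 1 not called, at 0.74 in polysomal RNA of dormant seeds (limma adjusted p = 0.1057). The median change of the list was 1.46 in polysomal RNA of non-dormant seeds, 1.17 in polysomal RNA of dormant seeds, 1.67 in total RNA of non-dormant seeds and 1.15 in total RNA of dormant seeds. Of 67 probe sets whose reference names say ribosomal protein, 5 were members. Among the 67, 60 were higher and 1 lower in polysomal RNA of non-dormant seeds, 56 were higher in polysomal RNA of dormant seeds, 62 were in total RNA of non-dormant seeds, and 49 in total RNA of dormant seeds. Of 26 listed ribosome assembly factors, FIB2 was the 1 member, and 17 were higher in polysomal RNA of non-dormant seeds, 10 in polysomal RNA of dormant seeds, 20 in total RNA of non-dormant seeds and 17 in total RNA of dormant seeds, with medians of 0.60, 0.44, 0.77 and 0.59. None of the 26 was called lower by limma.

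**Figure D3:**
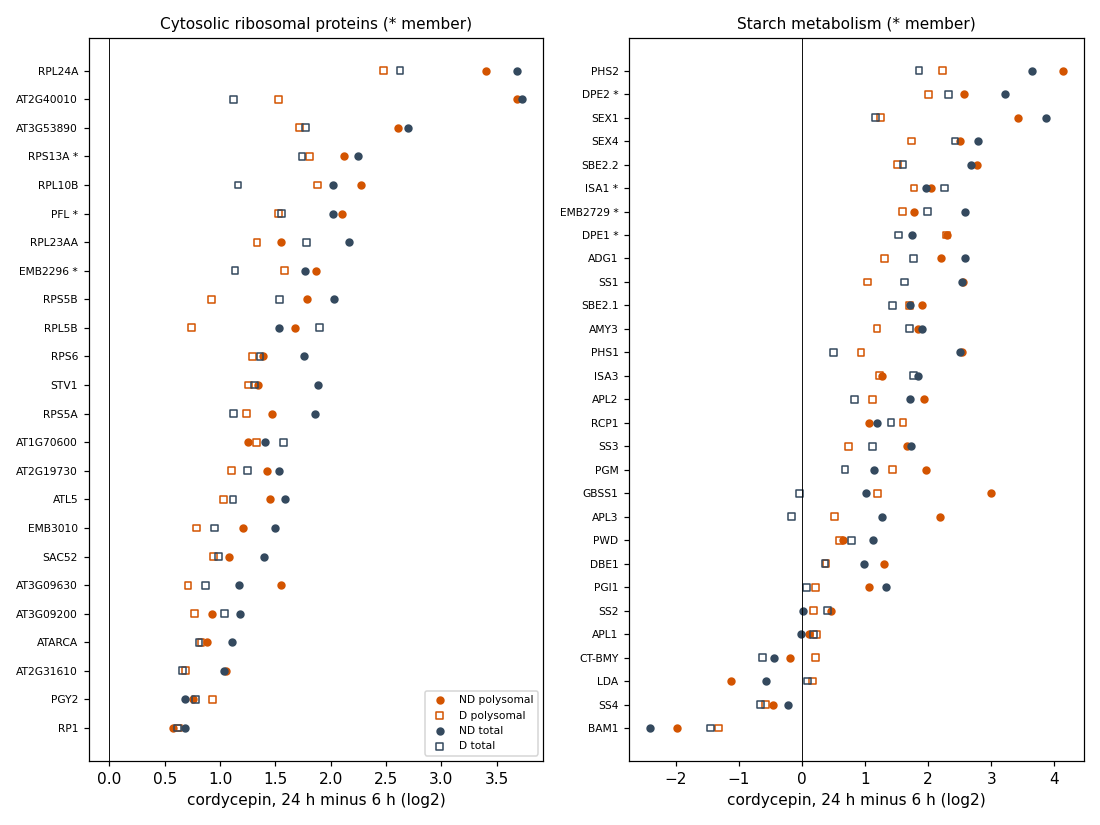
Points are the log2 change in cordycepin, 24 h minus 6 h, of 24 cytosolic ribosomal proteins and of 29 genes of starch metabolism, filled for non-dormant and open for dormant seeds, with an asterisk at members. All 24 ribosomal proteins lie above 0 in all 4 comparisons, whereas the starch genes range from BAM1, below 0 in all 4, to PHS2, DPE2 and others above 0 in all 4.

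Starch and sugar metabolism held 6 named members, of which 5 were higher in all 4 comparisons. DPE1 (AT5G64860) and DPE2 (AT2G40840) encode glucanotransferases that handle maltose and short glucans released from starch, in the plastid and in the cytosol. DPE2 had 9.22 and 8.71 in polysomal RNA of non-dormant seeds at 24 h in cordycepin, against 6.50, 6.30 and 6.38 at 6 h. In dormant seeds it had 8.62 and 8.49 at 24 h, against 6.59, 6.59 and 6.49 at 6 h. All arrays at 24 h were above all arrays at 6 h, and the difference was 2.57 ± 0.21 in non-dormant seeds and 2.003 ± 0.21 in dormant seeds. DPE1 changed by 2.31 ± 0.28 in non-dormant seeds and 2.29 ± 0.28 in dormant seeds in polysomal RNA. ISA1 (AT2G39930), an isoamylase that trims branches, changed by 2.04 ± 0.26 in non-dormant seeds and 1.77 ± 0.26 in dormant seeds there, and EMB2729 (AT3G20440), of the starch branching enzyme family, by 1.78 ± 0.28 and 1.60 ± 0.28. SAG29 (AT5G13170) is a sugar transporter of the SWEET family and changed by 2.03 ± 0.28 in non-dormant seeds and 1.47 ± 0.28 in dormant seeds, again in polysomal RNA. The sixth, the beta-glucosidase gene BGLU44 (AT3G18080), is described below with the members that differed between seed kinds.

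A list of 29 starch genes was drawn up after DPE1, DPE2, ISA1 and EMB2729 had been seen among the members, so its counts are a description. In cordycepin 23 were higher and 2 lower in polysomal RNA of non-dormant seeds, 18 higher and 1 lower in polysomal RNA of dormant seeds, 23 higher and 1 lower in total RNA of non-dormant seeds, and 17 higher and 2 lower in total RNA of dormant seeds. The medians were 1.89, 1.19, 1.72 and 1.12. Synthesis and breakdown genes were both among the higher ones, for example SS1, a starch synthase, at 2.55 in polysomal RNA of non-dormant and 1.03 in polysomal RNA of dormant seeds, and SEX4, a glucan phosphatase needed for breakdown, at 2.51 and 1.74. BAM1, a beta-amylase, was lower in all 4 comparisons, at -1.99 in polysomal RNA of non-dormant and -1.33 in polysomal RNA of dormant seeds.

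Nitrogen, amino acid and cofactor metabolism held 6 members, 5 of them higher in all 4 comparisons. UGLYAH (AT4G17050), ureidoglycine aminohydrolase, acts late in the breakdown of purines to ammonium. It changed by 2.50 ± 0.35 in polysomal RNA of non-dormant seeds and 2.104 ± 0.35 in polysomal RNA of dormant seeds. Its 6 h means there, 3.36 and 3.335, lay under the medians of all probe sets, 3.85 and 3.83, so these changes start from low values. UREG (AT2G34470) is an accessory protein that helps load nickel into urease. UREG changed by 1.47 ± 0.24 in polysomal RNA of non-dormant seeds and 1.61 ± 0.24 in polysomal RNA of dormant seeds. A list of 8 genes of ureide and urea breakdown, also added after these members had been seen, had 3 higher in polysomal RNA of non-dormant seeds, 2 in polysomal RNA of dormant seeds, 3 in total RNA of non-dormant seeds and 2 in total RNA of dormant seeds. UGLYAH and UREG were higher in all 4, URE, the urease itself, was the 1 other, at 0.67 in polysomal and 0.75 in total RNA of non-dormant seeds. PLR1 (AT5G53580), a pyridoxal reductase of vitamin B6 metabolism, and ALDH10A8 (AT1G74920), an aldehyde dehydrogenase, were higher in all 4, as was ACR4 (AT1G69040), an ACT domain protein. ACR4 was among the smallest changes, with a mean of 1.16 over the 4. MS2 (AT3G03780), a methionine synthase, was higher in 3 comparisons and had 0.77 ± 0.36 in total RNA of dormant seeds (limma adjusted p = 0.1571).

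Cytoskeleton, division and polarity held 4 members, and all 4 were higher in all 4 comparisons, with means between 1.95 and 2.18. MAP65-1 (AT5G55230) bundles microtubules. Its values in total RNA were 8.14, 8.04 and 7.91 at 24 h, against 6.56, 5.96 and 6.21 at 6 h, in non-dormant seeds in cordycepin. In dormant seeds they were 7.97, 8.27 and 8.14 at 24 h, against 6.12, 6.59 and 6.54 at 6 h. The 24 h values of the 2 seed kinds overlapped, as did those at 6 h, and the difference with time was 1.79 ± 0.23 in non-dormant seeds and 1.71 ± 0.23 in dormant seeds. ATK2 (AT4G27180) is a kinesin, BNS (AT1G73177) a small subunit of the anaphase-promoting complex, and ROP9 (AT4G28950) a small GTPase, a kind of switch for cell polarity. ROP9 changed by 2.58 ± 0.29 in polysomal RNA of non-dormant seeds and 2.61 ± 0.29 in polysomal RNA of dormant seeds.

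RNA and chromatin held 5 members, all higher in all 4 comparisons. Beside GRP4 these were RDR6 (AT3G49500), an RNA-dependent RNA polymerase of small RNA silencing, DRB3 (AT3G26932), a double-stranded RNA-binding protein, MBD4 (AT3G63030), a protein of the methyl-CpG-binding family, and HAT3 (AT3G60390), a homeodomain-leucine zipper transcription factor. RDR6 had 5.96 and 5.72 in polysomal RNA of non-dormant seeds at 24 h, against 4.04, 4.08 and 3.96 at 6 h. In dormant seeds it had 5.35 and 5.77 at 24 h, against 4.11, 3.88 and 4.07 at 6 h. The difference was 1.81 ± 0.26 in non-dormant and 1.54 ± 0.26 in dormant seeds. The 6 h values of RDR6 lay near the median of all probe sets, 3.85 in non-dormant and 3.83 in dormant seeds.

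Membranes, wall and signalling held 7 members, of which 5 were higher in all 4 comparisons. FLA8 (AT2G45470), a fasciclin-like arabinogalactan protein of the cell surface, was among the 8 largest mean changes in cordycepin, with 3.21 ± 0.27 in polysomal RNA of non-dormant seeds and 2.47 ± 0.27 in polysomal RNA of dormant seeds. FKBP15-2 (AT5G48580), an immunophilin, ACBP6 (AT1G31812), an acyl-CoA-binding protein, LYK3 (AT1G51940), a LysM receptor-like kinase, and ACA4 (AT2G41560), a calcium pump, were the other 4 with a call in all comparisons. UCN (AT1G51170), a protein kinase, changed by 0.68 ± 0.36 in total RNA of dormant seeds (limma adjusted p = 0.2163), and NDB1 (AT4G28220), an alternative NAD(P)H dehydrogenase of mitochondria, by 0.43 ± 0.24 in total RNA of non-dormant seeds (limma adjusted p = 0.1897). The plastid and light group held Pnsl5 (AT5G13120), a cyclophilin of the thylakoid lumen, and PHR2 (AT2G47590), of the photolyase family, with mean changes of 1.78 and 1.90.

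The other lists drawn up by locus held no member. The 27 genes of the proteasome had a median change in cordycepin of 0.46 in polysomal RNA of non-dormant seeds, 0.08 in polysomal RNA of dormant seeds, 0.65 in total RNA of non-dormant seeds and 0.29 in total RNA of dormant seeds, with 13, 5, 19 and 8 of them called higher and 1, 3, 1 and 1 lower. In the same order the medians were 2.99, 0.88, 2.58 and 0.21 for 15 genes of cell wall loosening, 2.07, 0.77, 1.53 and 0.17 for 15 tubulins, and 1.74, 1.03, 1.57 and 0.67 for 16 genes of cell cycle and DNA replication. Called higher were 12, 8, 11 and 2 of the wall genes, 13, 5, 11 and 2 of the tubulins and 12, 11, 11 and 7 of the cell cycle genes. Called lower were 0, 1, 0 and 0 of the wall genes, 0, 2, 0 and 0 of the tubulins and 0, 0, 1 and 0 of the cell cycle genes. They were 0.74, 0.80, 0.96 and 0.78 for 16 genes of mitochondrial import, with 10, 10, 11 and 11 called higher and 2, 0, 2 and 0 lower, and 1.01, 0.33, 1.04 and 0.34 for 12 of folding in the endoplasmic reticulum, with 7, 0, 8 and 3 called higher and 0 lower in each. Lists with medians of 0.2 or less in size were photosynthesis (17 genes), ethylene, jasmonate and wounding (14), seed coat markers (7) and, apart from -0.24 in total RNA of dormant seeds, endosperm markers (6). Phenylpropanoid genes (10) had medians of -0.18, -0.41, -0.38 and -0.53, and those of lipid mobilisation (17) -0.14, -0.35, -0.20 and -0.29. The 9 seed storage genes were all lower at 24 h in non-dormant seeds in both RNA types, 0 were in polysomal RNA of dormant seeds and 2 in total RNA of dormant seeds, with medians of -1.22, -0.21, -1.48 and -0.34. These moved with time beside the members, and their part in the members' relative change was not tested.

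In cordycepin the changes were close in size to those in water. The mean of the 4 changes had a median over the members of 1.83 in cordycepin and 1.85 in water, and it was larger in cordycepin for 49 members and smaller for 51. It was at least 0.75 of the value in water for 91 members and under 0.5 of it for 0. At 24 h cordycepin minus water had a median of -0.18 in polysomal RNA of non-dormant seeds, -0.25 in polysomal RNA of dormant seeds, -0.13 in total RNA of non-dormant seeds and -0.24 in total RNA of dormant seeds. At 6 h these medians were -0.29, -0.14, -0.21 and -0.12. Above 0 at 24 h were 22 members in polysomal RNA of non-dormant seeds, 17 in polysomal RNA of dormant seeds, 15 in total RNA of non-dormant seeds and 5 in total RNA of dormant seeds, while the median of all probe sets was 0.01 in each. At least 2-fold lower in cordycepin at 24 h were 2, 6, 2 and 6 members in the same order, against 1.67%, 0.891%, 1.41% and 0.535% of all probe sets. The water arrays chose the members, so these are values side by side with no test. Among all probe sets at 24 h, cordycepin minus water was called either way for 2.7% in polysomal RNA of non-dormant seeds, 0.377% in polysomal RNA of dormant seeds, 3.28% in total RNA of non-dormant seeds and 1.15% in total RNA of dormant seeds. At 6 h the shares were 0.0252%, 0.0108%, 0.0827% and 0.201% in the same order. Few probe sets thus passed the test between the treatments at either time. How far it entered the seeds or stopped transcription was not measured on these arrays.

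**Figure D4:**
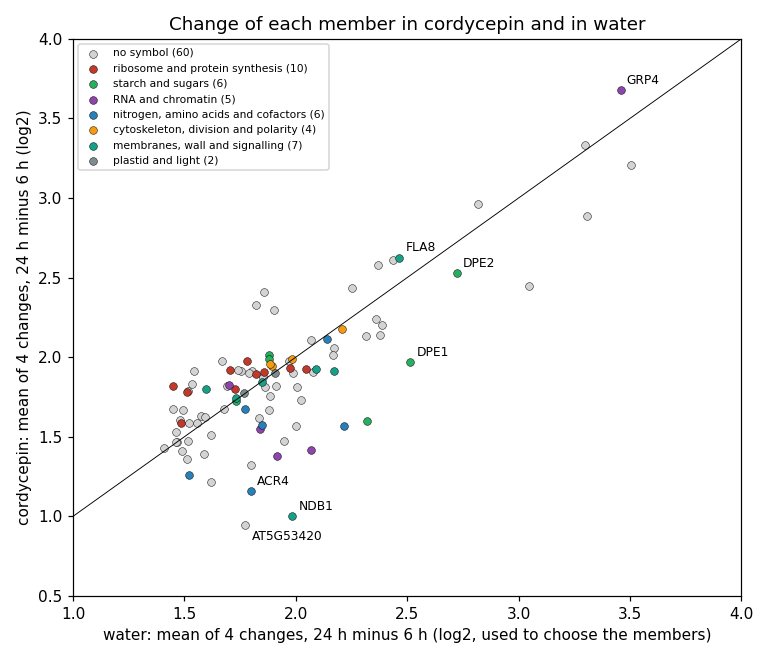
Each point is a member, with the mean of its 4 log2 changes (24 h minus 6 h, both seed kinds and RNA types) in cordycepin on the vertical axis and in water on the horizontal axis, coloured by role. The line marks equal values: 49 members lie above it and 51 below, and NDB1 and AT5G53420 lie farthest below.

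The members with the smallest changes in cordycepin were AT5G53420, NDB1 and ACR4. NDB1 had 5.04 and 4.80 in polysomal RNA of non-dormant seeds at 24 h in cordycepin, and 6.26, 6.62 and 6.19 in water. In dormant seeds it had 5.23 and 5.21 in cordycepin, and 6.37 and 6.46 in water. In polysomal RNA at 24 h the cordycepin arrays of each seed kind were all more than 1 log2 unit below the water arrays of the same seed kind. In dormant seeds the polysomal mean was lower in cordycepin at 6 h too, at 3.32 against 4.305 in water. The change with time there was 1.905 in cordycepin and 2.11 in water. In non-dormant polysomal RNA it was 0.92 and 2.03, and in total RNA 0.43 and 2.01 in non-dormant and 0.75 and 1.78 in dormant seeds. In total RNA at 24 h NDB1 had 5.005, 4.74 and 4.71 in non-dormant seeds in cordycepin, and 6.01, 6.23 and 5.86 in water. AT5G53420 had 3.83, 3.84 and 3.61 in total RNA of dormant seeds in cordycepin at 24 h, against 3.80, 4.06 and 3.56 at 6 h, which overlapped. Its change there was -0.05 ± 0.29 (limma adjusted p = 0.9429), while in polysomal RNA of dormant seeds it was 1.10 ± 0.32 and called. In total RNA of dormant seeds AT5G53420 lay below the median of all probe sets, 4.20 at 24 h and 4.15 at 6 h.

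The rule limited the difference between seed kinds in water at 24 h, where non-dormant minus dormant had a median over the members of 0.24 in polysomal RNA, with 86 members above 0, and of 0.30 in total RNA, with 90 above 0. In cordycepin, which the rule did not use, the same difference at 24 h had a median of 0.28 in polysomal RNA, with 86 members above 0, and of 0.42 in total RNA, with 84 above 0. By limma 4 members were called higher in non-dormant seeds in polysomal RNA, against 7.7% of all probe sets, and 16 in total RNA, against 8.86%. None was called lower, against 5.86% of all probe sets in polysomal and 7.79% in total RNA. At an unadjusted p under 0.05 the differences of 18 members in polysomal RNA passed, against 23.5% of all probe sets, and of 45 in total RNA, against 26.3%. At 6 h the median difference was 0.02 in polysomal RNA and -0.03 in total RNA. At that time 0 members were called higher and 1 lower in polysomal RNA, against 1.37% and 1.59% of all probe sets, and 2 higher and 1 lower in total RNA, against 2.45% and 2.38%. An unadjusted p under 0.05 was reached by 9 members in polysomal RNA, against 11.9% of all probe sets, and by 11 in total RNA, against 18%. The counts at 6 h lay near the background, and the 4 calls in polysomal RNA at 24 h lay below it. The 16 calls in total RNA at 24 h became 6 to 10 when any 1 array of the compared groups was left out.

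ACA4, the calcium pump, differed most between seed kinds at 24 h in total RNA. It had 7.75, 8.20 and 7.77 in non-dormant seeds in cordycepin, against 6.00, 6.53 and 7.03 in dormant seeds. The 2 seed kinds did not overlap, and the difference was 1.38 ± 0.28 (limma adjusted p = 0.000266). Its change with time in dormant seeds, 1.08 ± 0.28, was called, but was 0.83 and not called without dormant replicate 3 at 24 h. In water at 24 h it had 8.22, 8.43 and 8.43 in non-dormant seeds, against 7.81, 7.85 and 7.95 in dormant seeds. UCN followed at 1.24 ± 0.36, then AT2G02780 at 1.11 ± 0.32 and AT5G53420 at 1.06 ± 0.29. Also called were the small nucleolar RNA AT4G13245 at 0.96 ± 0.29, GRP4 at 0.72 ± 0.23, and the ribosomal proteins PFL at 0.62 ± 0.20, EMB2296 at 0.51 ± 0.17 and RPS13A at 0.46 ± 0.15. UCN lost its call without dormant replicate 3 or non-dormant replicate 3, AT2G02780 without dormant replicate 1, AT5G53420 without non-dormant replicate 1, and AT4G13245 when any 1 of 4 arrays was left out. In polysomal RNA the 4 called were GRP4 at 0.86 ± 0.28, FIB2 at 0.75 ± 0.21, AT5G56940 at 0.71 ± 0.20 and AT5G27700 at 0.70 ± 0.20. All 4 lost the call without non-dormant replicate 2, which leaves 1 array in that group, with differences of 0.58, 0.65, 0.43 and 0.60.

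BGLU44 had differences of opposite sign at the 2 times. In total RNA in cordycepin it had 7.21, 7.31 and 7.42 in non-dormant seeds at 24 h, against 6.46, 6.70 and 6.47 in dormant seeds. At 6 h it had 4.15, 4.91 and 4.67 in non-dormant seeds, against 5.29, 5.62 and 6.57 in dormant seeds. The seed kinds did not overlap at either time, with non-dormant above dormant seeds at 24 h and below them at 6 h. At 24 h the difference was 0.77 ± 0.29 and not called (limma adjusted p = 0.06881). At 6 h the difference of -1.25 ± 0.29 was called (limma adjusted p = 0.007369), but it was -0.88 and not called without dormant replicate 3, the array at 6.57. The change with time was 2.74 ± 0.29 in non-dormant seeds and 0.72 ± 0.29 in dormant seeds, and the second was not called (limma adjusted p = 0.08958). In water the change with time in total RNA was the rule's own, and BGLU44 stood at 7.93, 7.77 and 7.62 in non-dormant seeds at 24 h, against 7.19, 7.93 and 7.93 in dormant seeds.

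The difference between seed kinds in the change with time was itself tested in cordycepin. In total RNA 6 members were called with a larger change in non-dormant seeds, against 3.83% of all probe sets, and 0 with a smaller one, against 3.86%. They were BGLU44 at 2.02 ± 0.41, ACA4 at 1.54 ± 0.39, PLR1 at 1.26 ± 0.39, FLA8 at 1.21 ± 0.34, AT3G15357 at 0.93 ± 0.26 and DPE2 at 0.90 ± 0.27. In polysomal RNA limma called 0 members, against 3.09% of all probe sets with a larger and 2.23% with a smaller change, and 9 passed at an unadjusted p under 0.05, against 15.7% of all probe sets. The median of this difference over the members was 0.31 in polysomal and 0.35 in total RNA.

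Polysomal minus total RNA was small for most members. In cordycepin at 24 h its median was 0.09 in non-dormant seeds and 0.23 in dormant seeds, and at 6 h 0.13 in non-dormant and 0.16 in dormant seeds. At 24 h 3 members were called higher and 1 lower in polysomal RNA of non-dormant seeds, against 4.47% and 7.77% of all probe sets, and 7 higher and 1 lower in dormant seeds, against 6.24% and 7.92%. At 6 h, in non-dormant seeds, 12 members were called higher, against 14.6%, and 3 lower, against 13.3%. In dormant seeds 15 were called higher, against 13.7%, and 4 lower, against 13%. The shares called higher were near those of all probe sets, while those called lower were below them, a difference that was not tested. In water, the rule set a 24 h mean of at least 5 and ranked by rises in polysomal RNA too. It thus worked against transcripts low in polysomal RNA, so these shares cannot be read as a trait of the members. With quantile normalization over all arrays the calls were 1 higher and 1 lower in non-dormant and 2 higher and 2 lower in dormant seeds at 24 h, and 12 higher and 6 lower in non-dormant and 10 higher and 4 lower in dormant seeds at 6 h. That setting gave a median of 0.03 in dormant seeds at 6 h. As deposited, no call was made in any of the 4 comparisons for 68 members.

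UREG was higher in polysomal RNA in all 4. In non-dormant seeds at 24 h in cordycepin it had 7.92 and 8.16 in polysomal RNA, against 7.09, 7.36 and 7.13 in total RNA, and at 6 h 6.50, 6.66 and 6.54 in polysomal RNA, against 5.64, 5.76 and 5.46 in total RNA. In dormant seeds at 24 h it had 8.41 and 8.15 in polysomal RNA, against 7.42, 7.47 and 7.63 in total RNA. No polysomal array overlapped a total RNA array of the same seed kind and time. At 24 h the difference was 0.84 ± 0.24 in non-dormant seeds and 0.77 ± 0.24 in dormant seeds, and at 6 h 0.94 ± 0.21 in non-dormant seeds and 0.80 ± 0.21 in dormant seeds. Each 24 h call was lost without single arrays (lowest differences 0.73 in non-dormant seeds and 0.65 in dormant seeds). MBD4 was called higher in 3 comparisons, with 1.23 ± 0.21 in dormant seeds at 24 h, 0.95 ± 0.19 in non-dormant seeds at 6 h and 0.85 ± 0.19 in dormant seeds at 6 h. ALDH10A8 was higher in 3 as well, with 0.78 ± 0.22 in non-dormant seeds at 24 h, 0.93 ± 0.20 in non-dormant seeds at 6 h and 1.08 ± 0.20 in dormant seeds at 6 h. The small nucleolar RNA AT4G13245, of a class that acts in the nucleolus and encodes no protein, was called lower in polysomal RNA at 24 h in both seed kinds. It had 6.36 and 7.77 in polysomal RNA of non-dormant seeds, against 7.70, 8.23 and 8.42 in total RNA. In dormant seeds it had 5.74 and 6.59 in polysomal RNA, against 7.08, 6.97 and 7.42 in total RNA. The arrays overlapped in non-dormant seeds and did not in dormant seeds, the differences were -1.05 ± 0.32 and -0.99 ± 0.32, and without polysomal replicate 1 they were -0.34 and -0.57 and not called.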

How the data were processed

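The deposited table holds log2 expression values that the authors made with RMA, per the submitters' processing notes, which give no version in the sources used here, as is so for the array type and probe design. No further normalization was applied. Precision is limited by how many arrays a group has. Of 27827 probe sets, 27241 matched a locus in a RefSeq table of assembly TAIR10.1, used for names and neighbours only. Arrays were placed in groups by their titles, and all 45 columns matched a sample.

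The members and gene lists were chosen with earlier results of these data known, and the starch and ureide lists after the members had been seen. All arrays entered a single limma fit of group means (limma 3.58.1, R 4.3.3, and data.table at version 1.17.8). It left 29 residual degrees of freedom, moderated by a prior SD of 0.294 with 6.392 degrees of freedom, and was tested on simulated data. P-values were adjusted by Benjamini-Hochberg over all probe sets. The spread was shared by all groups, and p-values measure the spread between replicate arrays of a group. Replicates were bulks of plants per the labels, and how much of the spread lay between bulks was not tested. Members were tested only in comparisons among cordycepin groups, since water arrays chose them, though all arrays gave the shared spread. Cordycepin minus water was called over all probe sets, and the members' values in it are given untested. The comparisons that share cordycepin groups are not independent.

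Named were the 20 first ranks, the 3 ranks on each side of the limit, the 8 largest and 8 smallest mean changes in cordycepin, called members of the other comparisons and list members. The text gives part of these, and 1 member is counted but not reported by name here. The 40 members with a symbol were also grouped by role after membership was known, and 6 genes of the lists that are no members were named after their values were seen.

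Replicate numbers were not taken to pair arrays, since in no comparison with 3 pairs did every pair's deviations correlate above 0.1 (highest 0.4, lowest -0.055). In 3 polysomal comparisons with 2 pairs every correlation was above 0.1 (0.116 to 0.34), and that at 6 h between seed kinds had 0.067 to 0.4, so polysomal arrays of a number did deviate together in part. Alternatives were the replicate block, array weights, a trended robust prior, quantile normalization over all arrays or within an RNA type, a group mean of at least 4, the compared arrays alone, each array left out, and the first 50 ranks. For the choice of members, group medians were tried. Sequences of members were not used here.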

Additional observations from a re-analysis of the deposited data

Results flagged for a closer look

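In total RNA in cordycepin, 6 members were picked out because the test of the difference itself, the change from 6 h to 24 h in non-dormant seeds minus that in dormant seeds, passed in limma. All 6 of the 100 had the larger change in non-dormant seeds, against 3.83% of all probe sets. With a smaller one 0 members were called, against 3.86%. The 6 calls lay near the share of all probe sets, so their number cannot be read as a trait of the members. BGLU44 had a difference of 2.02 ± 0.41 (standard error, limma adjusted p = 0.001074), and ACA4 of 1.54 ± 0.39 (limma adjusted p = 0.00862). Both were called without any 1 of the 12 arrays compared, with ranges of 1.65 to 2.29 for BGLU44 and 1.28 to 1.80 for ACA4.

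PLR1 had 1.26 ± 0.39 (limma adjusted p = 0.03827), FLA8 1.21 ± 0.34 (limma adjusted p = 0.01869), AT3G15357 0.93 ± 0.26 (limma adjusted p = 0.02093) and DPE2 0.90 ± 0.27 (limma adjusted p = 0.03342). These 4 were above 0 in every alternative run, but lost the call in some: without single arrays they ran from 0.92 to 1.57 for PLR1, 0.96 to 1.57 for FLA8, 0.74 to 1.12 for AT3G15357 and 0.76 to 1.06 for DPE2, and none of the 4 passed with the 12 compared arrays fitted alone.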

How the results depend on the processing

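The counts of members higher at 24 h than at 6 h in cordycepin kept within 1.5 times under every alternative run. Leaving out 1 array gave 99 to 100 in polysomal RNA of non-dormant seeds, 88 to 96 in polysomal RNA of dormant seeds, 99 to 99 in total RNA of non-dormant seeds and 92 to 96 in total RNA of dormant seeds. No direction reversed. The rule itself gave 82 of the same members after quantile normalization over all arrays, 80 after that within each RNA type and 72 with group medians. The smaller counts depended on the settings, and the cause was not tested. For non-dormant minus dormant seeds at 24 h, the 16 calls in total RNA became 36 with array weights, 27 with a trended robust prior, 28 with a group mean of at least 4 and 6 to 10 without 1 array. The 4 in polysomal RNA became 7 with that filter, 0 with the compared arrays alone, 1 among the first 50 ranks and 2 to 6 without 1 array. At 6 h the 3 in total RNA became 0 with the compared arrays alone and 0 to 2 without 1 array, and the 1 in polysomal RNA became 0 with quantile normalization over all arrays or the compared arrays alone, 1 among the first 50 ranks and 0 to 1 without 1 array. For polysomal minus total RNA at 24 h, the 4 calls in non-dormant seeds became 7 with array weights, 2 with quantile normalization over all arrays and 1 to 4 without 1 array. The 8 in dormant seeds became 4 with array weights, 4 with quantile normalization over all arrays, 2 with the compared arrays alone and 3 to 8 without 1 array. At 6 h the 15 in non-dormant seeds became 26 with array weights and 8 to 16 without 1 array, and the 19 in dormant seeds became 6 with the compared arrays alone and 12 to 18 without 1 array. The 6 members whose change differed between seed kinds in total RNA became 5 among the first 50 ranks and 3 to 6 without 1 array, and the 0 in polysomal RNA became 1 with array weights, 1 with the trended robust prior, 1 with the filter and 0 to 1 without 1 array.

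With the replicate number as a block, that count in polysomal RNA became 1, and the counts higher at 24 h were 100 and 98 in polysomal RNA of non-dormant and of dormant seeds and 99 and 95 in total RNA. Non-dormant minus dormant seeds had 6 calls in polysomal and 22 in total RNA at 24 h, and 1 and 3 at 6 h. Where a group of 2 arrays lost 1, the lone array was assumed to vary like the other groups. With 2 or 3 arrays a group, small differences between single members may not pass.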

Other observations

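The members were spread over all 5 chromosomes, with 15, 21, 26, 14 and 24 on chromosomes 1 to 5, where 25.5%, 15.6%, 19.5%, 14.9% and 22.4% of all probe sets lie. RFC3 and AT3G17160 are neighbours on chromosome 3 with 0 measured genes between them, and AT4G39200 and AT4G39230 on chromosome 4 have 2 between them. How the probes tell neighbouring transcripts apart was not given in the sources used here.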
